A study of Mus musculus with 6 samples.

Results

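The genes described here are the kinesins and tubulins of the mouse microglial cell line BV2. They were taken from the array's platform table by symbol: KIF followed by a digit, TUBA, TUBB or TUBG followed by a digit, or a symbol starting with DYNC or DYNL. The rule found 61 of 26423 probes and 50 of 17742 named genes. Of these, 12 genes (14 probes) were mitotic kinesins, 25 genes (33 probes) were other kinesins and 13 genes (14 probes) were tubulins. The rule found 0 dynein probes: no probe used here carries such a symbol, and the dynein side of the motor system was not analysed.

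BV2 is an immortalised mouse line, made with a retrovirus that carries the raf and myc oncogenes, that keeps many microglial features and divides in culture. All cells were grown in serum-containing medium, and the treated cells received adenine, a purine base, for 1 h. The 6 single-colour Cy5 arrays fall into 3 groups of 2: untreated control cells, cells given a lower dose and cells given a higher dose. Titles and the treatment protocol give the doses as 20 and 80 µM, whereas the sample characteristics give 80 and 250 µM, so only their order is used. The design text speaks of separate cultures, all of 1 cell line, so p-values measure the spread between cultures of that line.

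Microtubules are polymers of alpha- and beta-tubulin, and gamma-tubulin seeds new ones at the centrosome. Kinesins are motor proteins that use ATP to walk along microtubules or to take their ends apart. Most members carry vesicles, organelles or ciliary cargo, while the mitotic kinesins build the spindle, move chromosomes and help to divide the cell. The mRNAs of many mitotic kinesins are made mainly late in the cell cycle, and free tubulin dimers are known to control the stability of tubulin mRNAs, so both groups are common readouts of division and of the microtubule state.

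At the higher dose against control, 3 mitotic kinesins fell (Kif23, Kif2c and Kif18a, by 1.83- to 2.01-fold), 2 tubulins rose (Tuba1a by 2.33-fold and Tubb2a by 1.94-fold), and 1 transport kinesin fell (Kif21b, 1.72-fold). Kif6, a dim kinesin, rose. Over all probes, 3 of 61 rose and 6 fell, including the dimmer probes of Kif3b and Kif7. Among all 26423 probes, 10.6% changed in this comparison, 5.55% rising and 5.06% falling. The 4.92% of kinesin and tubulin probes that rose is near that background, and the 9.84% that fell is above it. By gene, 3 of 50 rose and 4 fell, beside 6.37% and 5.39% of all named genes. Whether the set differs from the background was not tested. At the lower dose 0 of the 61 probes changed, where 0.0114% of all probes did. A change here means an adjusted p under 0.05 in limma, fitted to all 6 arrays, with Benjamini-Hochberg adjustment over all probes. Levels are quantile-normalized spot intensities in arbitrary units, and changes are log2 differences with the standard error of the fit (SE, n = 2 arrays a group).

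The median deposited intensity ranged from 125 to 170 units over the 6 arrays, and 38 of the 61 probes (34 of the 50 genes) lay above the median probe, at 141.8 normalized units. Of 12 microglial and macrophage markers, 11 were measured and 10 lay above the median probe. The exception was Cx3cr1, at 88.7 to 118.7 units. Their summed intensity was 81880.2 to 87704.5 units in control, 79823.1 to 88070.6 at the lower dose and 107260.7 to 118220.7 at the higher dose. Of the 11 markers, 6 had a positive higher-dose change and 5 a negative one, and only Aif1 and Itgam passed the test, both rising. Cd68 read 33604 and 36126 in control and 64073 and 46027 at the higher dose without passing (limma adjusted p = 0.13). Adgre1 (-0.49) and Csf1r (-0.48) had the largest negative changes. Summed markers of 6 other tissue cell types stayed at or below 3146.8 units on every array. The share of measured markers above the median probe was 0 of 4 for fibroblasts, 1 of 4 for astrocytes, 2 of 5 for neurons, 2 of 4 for lymphocytes and 3 of 4 each for oligodendrocytes and endothelium, and no measured marker was at 0. Summed endothelial markers, mostly Kdr, were 2639.2 to 2714 units in control and 1936.2 to 2248 at the higher dose, and summed lymphocyte markers 786 to 822.6 and 1047.8 to 1068. The part of these marker shifts in the changes described next was not tested. In RNA from whole cultures, fewer cells of a kind and less RNA per cell cannot be told apart.

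**Figure D1:**
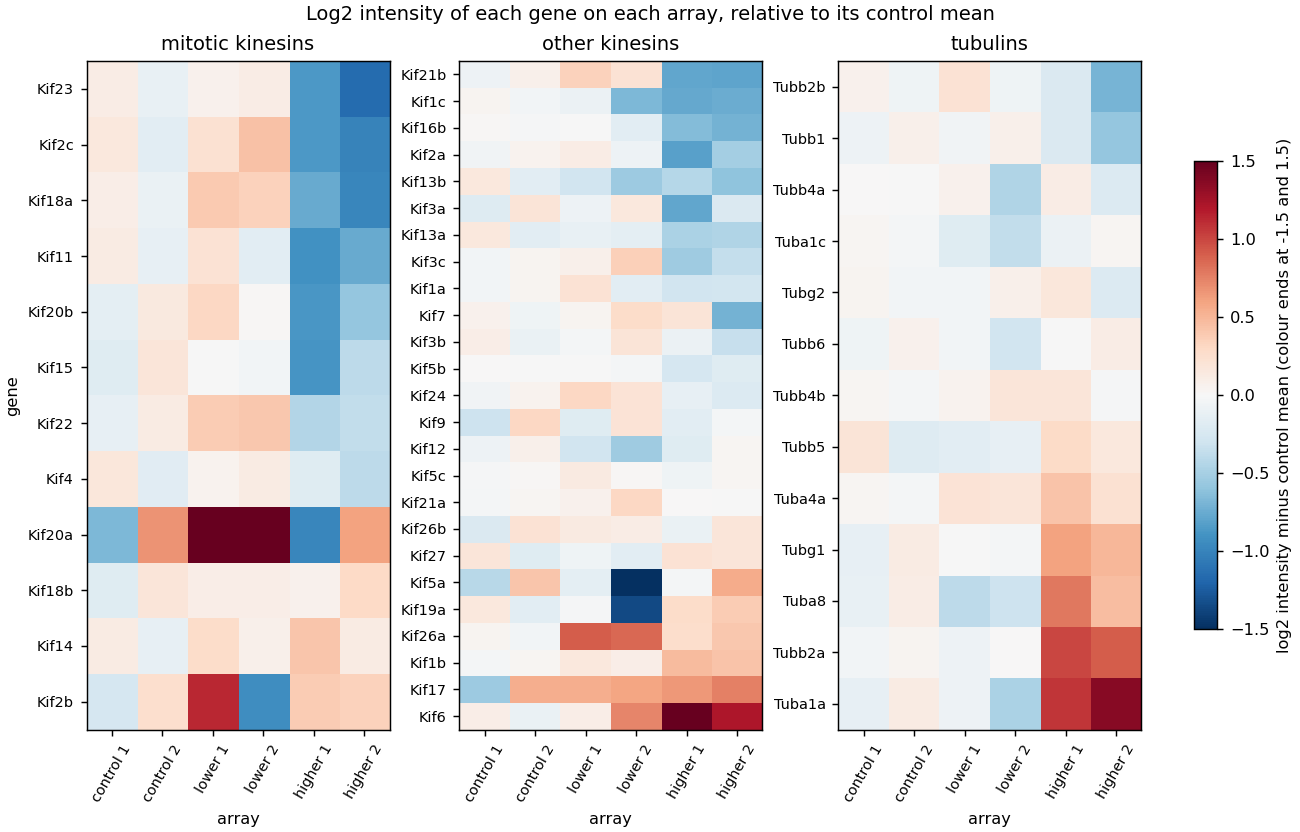
Log2 intensity of each gene on each of the 6 arrays relative to its own control mean, in 3 panels for mitotic kinesins, other kinesins and tubulins, with genes ordered by their higher-dose change and the colour scale ending at -1.5 and 1.5. The upper rows of the mitotic panel (Kif23, Kif2c, Kif18a and Kif11) are blue on both higher-dose arrays and near white or pale red on the lower-dose arrays. Tuba1a and Tubb2a are strongly red on the higher-dose arrays alone.

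Promoters were searched for a pair of motifs common in genes of the late cell cycle. The cell cycle homology element, TTTGAA, is a short motif through which many late cell cycle genes are kept silent outside that phase. It was searched on both strands in RefSeq promoter windows (GRCm38.p6), which 41 of the 50 genes have. It occurred in 9 of 11 mitotic kinesin windows (81.8%), 3 of 20 of the other kinesins, 1 of 10 tubulins and 20.2% of all genes with a window (17.9% of all promoters). The CCAAT box, which binds the factor NF-Y, occurred in 7 of 11 mitotic kinesins, 7 of 20 other kinesins, 5 of 10 tubulins and 41.1% of all genes. Neither motif was found for Kif18a or Kif20a. As 11 of the 12 mitotic kinesins have a window, these counts do not tell a window without motifs from a missing window. The stretches that hold the motifs in 6 mitotic kinesins, all with negative higher-dose changes, are printed here. Each TTTGAA (or its reverse complement TTCAAA) and each ATTGG (the reverse complement of CCAAT) is in capitals. TTTGAA also occurred in Kif15 (higher-dose change -0.64), Kif18b (0.19) and Kif14 (0.27 on its brighter probe, -1.28 on its dimmer), which are not printed. Kif18b and Kif14 also hold a CCAAT box. Whether the motifs go with the changes was not tested. A match is a description of the letters and not evidence of binding.
Kif2c, chr4:117178858-117178887, minus strand: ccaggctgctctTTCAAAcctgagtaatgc
Kif23, chr9:61946782-61946811, minus strand: cgctgATTGGcctgTTTGAAatgcgccggg
Kif11, chr19:37376332-37376371, plus strand: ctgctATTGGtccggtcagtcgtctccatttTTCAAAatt
Kif22, chr7:127042426-127042480, minus strand: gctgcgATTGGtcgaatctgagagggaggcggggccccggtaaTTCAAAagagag
Kif20b, chr19:34922350-34922379, plus strand: gccgagccgccattgTTTGAATTTGAAaac
Kif4, chrX:100626060-100626089, plus strand: ATTGGctggcgcctctgggatcaaTTTGAA

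Kif23 is the motor of centralspindlin, the complex that bundles the midzone of the spindle for cytokinesis. Its intensity was 8836 and 7609 in control, 8545 and 8851 at the lower dose, and 4514 and 3684 at the higher dose. Both higher-dose arrays thus lay well below the other 4, which overlapped one another. The higher-dose change was -1.01 ± 0.18 (SE; 2.01-fold lower, adjusted p = 0.0334), and on the values as deposited the adjusted p was 0.0554. Its promoter window holds both motifs next to each other close to the start site.

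Kif2c is a motor of the kinesin family that removes tubulin from microtubule ends at kinetochores. Control arrays read 3459 and 2790, lower-dose arrays 3642 and 4199, and higher-dose arrays 1709 and 1556. The order was lower dose, control, higher dose, with no overlap between any groups. The higher-dose change was -0.93 ± 0.19 (SE; 1.91-fold lower, adjusted p = 0.0418).

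Kif18a limits the swings of chromosomes at the spindle equator. It read 2597 and 2271 in control, 3195 and 3075 at the lower dose, and 1433 and 1233 at the higher dose, again in the order lower dose, control, higher dose with no overlap. Its higher-dose change was -0.87 ± 0.17 (SE; 1.83-fold lower, adjusted p = 0.0387). Neither motif was found for this gene in the promoter search.

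By brighter or only probe, the nearest mitotic kinesins on the other side of the threshold were Kif11 and Kif20b. The dimmer Kif4 probe, described below, lay nearer. Kif11, the pole-separating motor, read 1148 and 968.8 in control, 1229 and 945.6 at the lower dose, and 559.8 and 624.8 at the higher dose (-0.83 ± 0.20 SE, adjusted p = 0.063). Kif20b, needed late in cytokinesis, read 3146 and 3853 in control, 4319 and 3537 at the lower dose, and 1894 and 2336 at the higher dose (-0.73 ± 0.21 SE, adjusted p = 0.0912). In both, the higher-dose arrays were the lowest of the 6 and the control and lower-dose arrays overlapped, yet neither passed the test.

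Kif15, which backs up Kif11 in spindle assembly, read 1707 and 2190 in control, 1924 and 1874 at the lower dose, and 1049 and 1472 at the higher dose (-0.64 ± 0.23 SE, adjusted p = 0.15). Kif22, a motor that binds chromosome arms, read 5917 and 7068 in control, 8450 and 8548 at the lower dose, and 4764 and 5014 at the higher dose (-0.40 ± 0.16 SE, adjusted p = 0.178). Each had both higher-dose arrays below both controls, and Kif22 also had both lower-dose arrays above them. Kif4, a chromosome-bound motor of the midzone, was measured by 2 probes. The brighter read 2404 and 1885 in control, 2202 and 2324 at the lower dose and 1878 and 1628 at the higher dose, so its higher-dose arrays were just below the lowest control (-0.28 ± 0.19 SE, adjusted p = 0.388). The dimmer read 1680 and 1420 in control, 1498 and 1680 at the lower dose and 959 and 800 at the higher dose, clearly below the rest (-0.82 ± 0.18 SE, adjusted p = 0.054).

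The remaining 4 mitotic kinesins were dim or showed no separation. Kif18b, a plus-end motor that shortens astral microtubules, ranged from 386.3 to 540.6 with overlapping groups (0.19 ± 0.19 SE, adjusted p = 0.577). Kif20a, a cytokinesis motor, read only 7.67 to 44.1 units and its replicates differed widely (-0.19 ± 0.66 SE, adjusted p = 0.884). Kif2b ranged from 37.5 to 156.7, both extremes being lower-dose replicates. Kif14, which acts with Prc1 in cytokinesis, read 61.5 to 89.2 on its brighter probe (0.27 ± 0.19 SE, adjusted p = 0.414).

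Among the 12 mitotic kinesins, 9 had a negative higher-dose change and 3 a positive one, with a median of -0.52 and a range of -1.01 to 0.36. The median over all named genes was -0.02. By probe, 3 of 14 fell (21.4%) and 0 rose, beside 5.06% and 5.55% of all probes, and 10 of the 14 had both higher-dose arrays below both controls, beside 31.3% of all probes. Another 2 had both above, beside 28.8%. On single arrays the median relative to the control mean was -0.81 and -0.39 at the higher dose and 0.25 and 0.10 at the lower dose, so the 2 higher-dose arrays differed in size but not in sign.

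**Figure D2:**
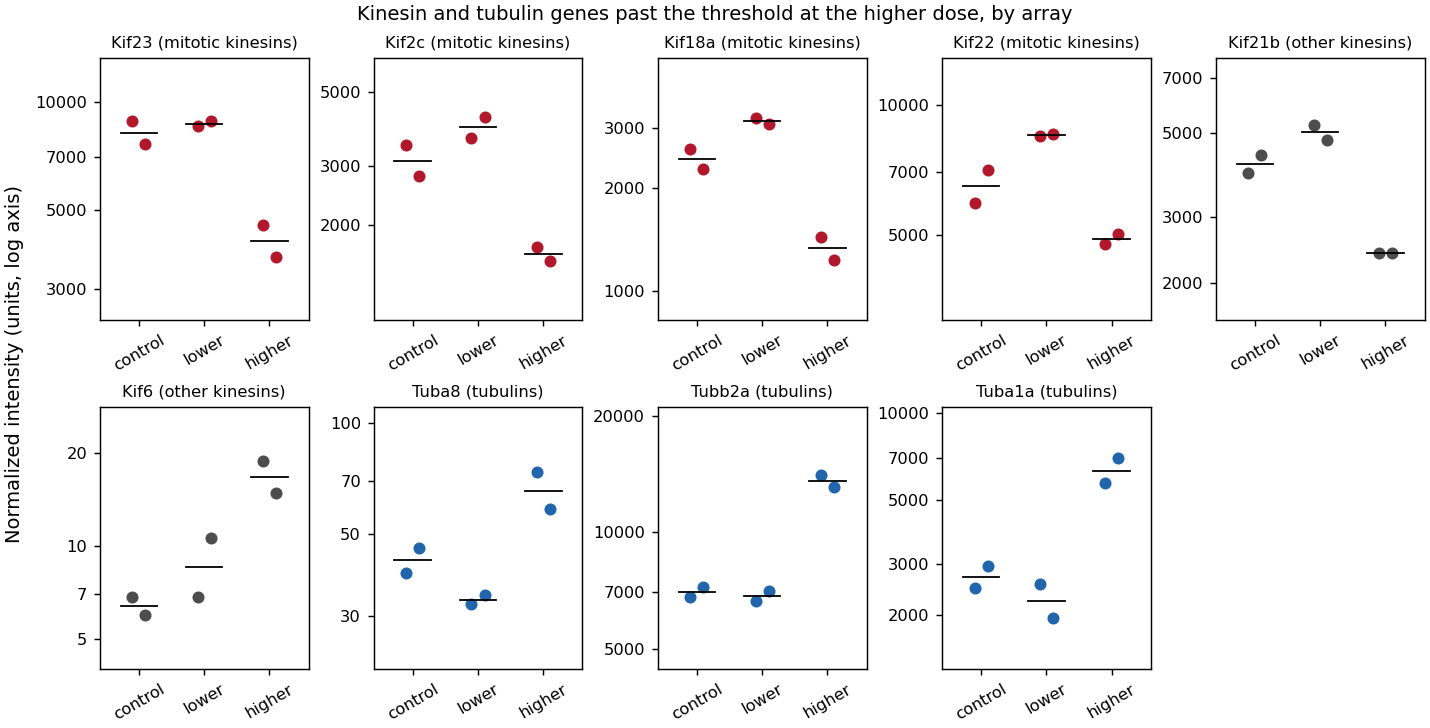
Normalized intensity in units (log axis, 1 point per array, bars at the group mean on the log scale) of the 9 genes whose brighter or only probe changed at the higher dose against control or against the lower dose. The mitotic kinesins and Kif21b are lowest at the higher dose, and Kif6, Tuba8, Tubb2a and Tuba1a are highest there. Kif22 and Tuba8 passed the threshold only against the lower dose.

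Gene length moved with the higher-dose change over the whole array. Over 17710 genes with a span, from the start to the end of the gene, Spearman's rho between span and change was -0.20 across genes, which are not independent replicates, and over the 50 kinesins and tubulins it was -0.26. The median span was 37.5 kb for mitotic kinesins, 48.4 kb for other kinesins, 6.29 kb for tubulins and 19.3 kb for all named genes. With each array's trend on span removed, the number of probes that changed was the same in each class (3, 4 and 2). The median changes were then -0.46 for mitotic kinesins, -0.10 for other kinesins and 0.004 for tubulins.

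Kif21b, a motor of neurons and immune cells that also slows microtubule growth, was the only gene among the other kinesins whose brighter or only probe fell. It read 3929 and 4376 in control, 5265 and 4806 at the lower dose, and 2412 and 2400 at the higher dose. The 3 groups did not overlap, and the order was that of Kif2c and Kif18a. The higher-dose change was -0.79 ± 0.15 (SE; 1.72-fold lower, adjusted p = 0.0398), and it lost the call on the values as deposited (adjusted p = 0.0615).

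Kif6, a kinesin of motile cilia, rose from 6.83 and 6 in control to 18.8 and 14.8 at the higher dose, with 6.83 and 10.7 at the lower dose. All 6 values are a small fraction of the median probe's 141.8 units. The change was 1.38 ± 0.27 (SE; 2.61-fold, adjusted p = 0.0405), but adding 16 units before the log brought it to 0.55 (adjusted p = 0.0532). On the values as deposited its adjusted p was 0.0769, and with a trended prior 0.0666.

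Kinesin-2, the heterotrimeric motor that carries cargo into cilia, is made of Kif3a with Kif3b or Kif3c. Kif3a read 863.2 and 1126 in control, 935.2 and 1103 at the lower dose, and 572.9 and 845.4 at the higher dose (-0.50 ± 0.26 SE, adjusted p = 0.283). The higher-dose arrays were the lowest, but the second lay close to the first control. The dimmer Kif3b probe fell, from 2003 and 1759 in control and 1805 and 1867 at the lower dose to 1091 and 904.2 at the higher dose (-0.92 ± 0.17 SE, adjusted p = 0.0374). The brighter Kif3b probe, at 2161 and 1897 in control and 1901 and 1595 at the higher dose, overlapped (-0.22 ± 0.18 SE, adjusted p = 0.49). Kif3c read 121.7 and 129.3 in control and 86.5 and 98.2 at the higher dose, without overlap (-0.45 ± 0.18 SE, adjusted p = 0.172). Kif17, the homodimeric ciliary motor, read 14.8 to 36.5 units on the 6 arrays and gave 0.70 ± 0.36 (SE, adjusted p = 0.277).

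Kinesin-1 is the main motor for outward transport of mitochondria and vesicles, and Kif5b is its ubiquitous heavy chain. The brighter Kif5b probe read 3857 and 3814 in control, 3818 and 3750 at the lower dose, and 3223 and 3386 at the higher dose (-0.22 ± 0.14 SE, adjusted p = 0.38). The dimmer read 2909 and 3367, 3916 and 3538, and 1697 and 1984 in the same order (-0.77 ± 0.17 SE, adjusted p = 0.0543). Both probes were lowest at the higher dose, by different amounts. The neuronal heavy chains overlapped between control and higher dose. Kif5a ranged from 72 to 320 units on its brighter probe (0.26 ± 0.57 SE, adjusted p = 0.80), and Kif5c from 136.8 to 156.7 (-0.02 ± 0.15 SE, adjusted p = 0.953).

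Kinesin-3 motors carry synaptic and lysosomal vesicles. Kif1b, a carrier of vesicles and mitochondria, had a positive change, from 1344 and 1393 in control and 1530 and 1466 at the lower dose to 1902 and 1837 at the higher dose (0.45 ± 0.14 SE, adjusted p = 0.11). Kif1c went the other way, from 361 and 338.4 in control and 329.5 and 219.3 at the lower dose to 206 and 208.2 at the higher dose (-0.76 ± 0.23 SE, adjusted p = 0.103). On these probes, the brighter of 2 for Kif1b, neither gene's higher-dose arrays overlapped its controls, and neither passed the test. The dimmer Kif1b probe overlapped, at 1057 and 847.6 in control and 1165 and 1019 at the higher dose (0.20 ± 0.19 SE, adjusted p = 0.527). Kif16b, a motor of early endosomes, lay just outside the threshold, reading 2977 and 2912 in control, 2940 and 2642 at the lower dose, and 1872 and 1805 at the higher dose (-0.68 ± 0.15 SE, adjusted p = 0.05004). Kif13b read 129.8 and 104.5 in control and 86.5 and 76.7 at the higher dose (-0.52 ± 0.19 SE, adjusted p = 0.157).

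Of the kinesins tied to Hedgehog signalling and cilia, Kif7, which works at the tip of the cilium, was measured by 2 probes. The dimmer fell, reading 172.8 and 144.7 in control, 177 and 196.2 at the lower dose, and 94.2 and 82.8 at the higher dose (-0.84 ± 0.18 SE, adjusted p = 0.0462). The brighter read 166 and 150.8, 163.2 and 192, and 180.8 and 97.2, so its higher-dose replicates lay on either side of the controls (-0.26 ± 0.32 SE, adjusted p = 0.651). Kif27, a relative of Kif7, and Kif9, a kinesin of motile cilia, had higher-dose arrays that overlapped control on both of their probes. Their brighter probes gave 0.20 ± 0.18 (SE, adjusted p = 0.521) and -0.09 ± 0.27 (SE, adjusted p = 0.852).

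Of the 25 other kinesins, 16 had a negative and 9 a positive higher-dose change, with a median of -0.16 and a range of -0.79 to 1.38. By probe, 1 of 33 rose (3.03%) and 3 fell (9.09%), beside 5.55% and 5.06% of all probes. Both higher-dose arrays lay below both controls for 14 probes and above them for 6, beside 31.3% and 28.8% of all probes.

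**Figure D3:**
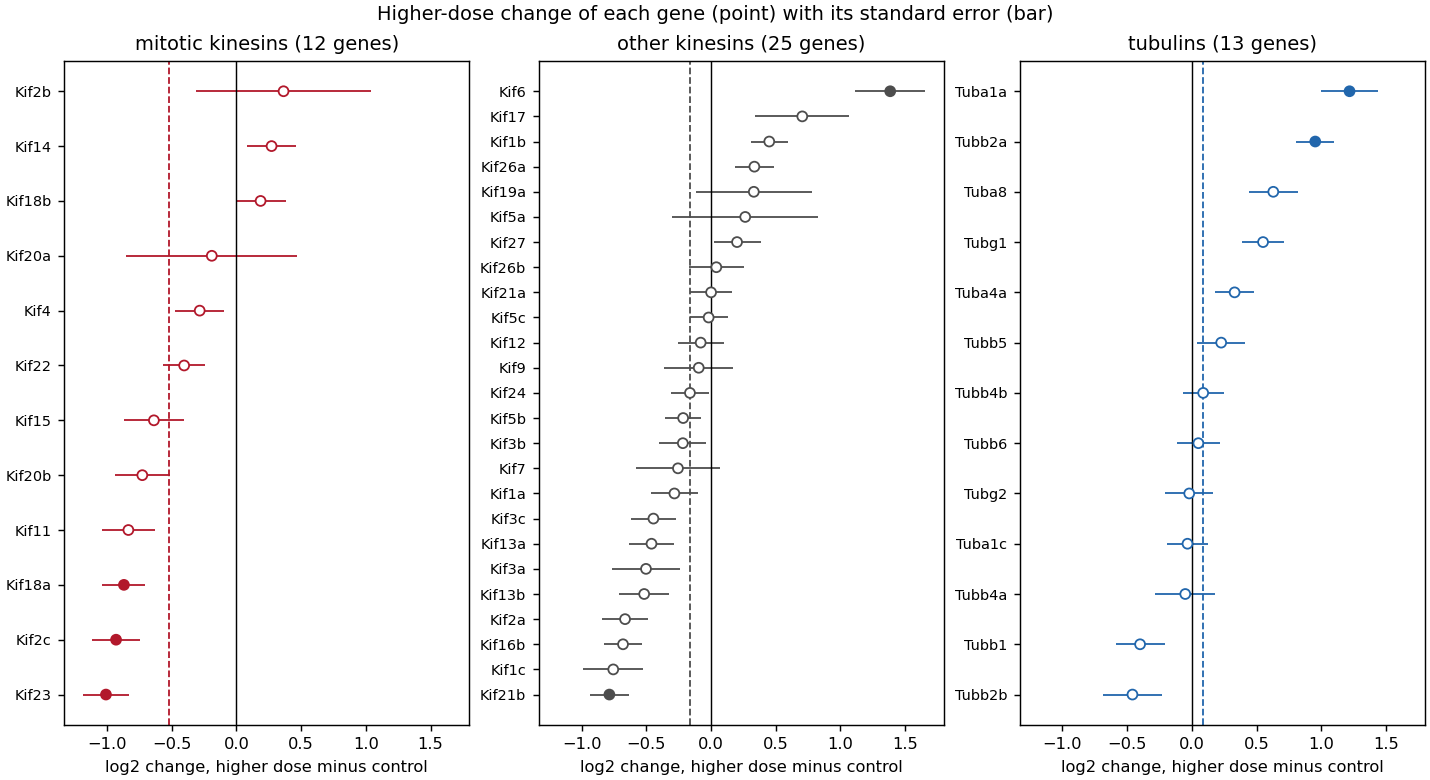
Log2 change at the higher dose against control for each gene (brighter or only probe), with its standard error as a bar, in panels of 12 mitotic kinesins, 25 other kinesins and 13 tubulins. Filled points passed the threshold, and dashed lines mark the class medians of -0.52, -0.16 and 0.09.

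The tubulin probes that changed all rose. Tuba1a, the alpha-tubulin most abundant in developing neurons, read 2482 and 2960 in control, 2573 and 1958 at the lower dose, and 5707 and 6970 at the higher dose. The higher-dose arrays stood far above the other 4, which overlapped. The change was 1.22 ± 0.22 (SE; 2.33-fold, adjusted p = 0.0342), and with arrays scaled only to equal medians the adjusted p was 0.0552.

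Tubb2a, a beta-tubulin of brain and of many dividing lines, read 6777 and 7209 in control, 6645 and 7022 at the lower dose, and 14014 and 13067 at the higher dose. The lower-dose arrays lay within or next to the control range, and both higher-dose arrays far above it. The change was 0.95 ± 0.15 (SE; 1.94-fold, adjusted p = 0.0265). The neighbouring and near-identical gene Tubb2b read 639.5 and 580.7 in control, 708 and 582.2 at the lower dose, and 523.3 and 375.6 at the higher dose, in the opposite direction (-0.46 ± 0.23 SE, adjusted p = 0.255). Tubulin genes share most of their coding sequence and probe sequences were not used here, so how far 1 probe also reads another tubulin was not tested.

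Gamma-tubulin 1, Tubg1, read 1759 and 2074 in control, 1909 and 1871 at the lower dose, and 2894 and 2700 at the higher dose. Its higher-dose arrays were separate from the other 4, but the change did not pass (0.55 ± 0.16 SE, adjusted p = 0.093). Its paralog Tubg2 ranged from 253.5 to 329.2 with both extremes at the higher dose (-0.02 ± 0.19 SE, adjusted p = 0.96). Tuba8, a divergent alpha-tubulin of muscle, testis and brain, read 39.3 and 45.9 in control, 32.3 and 34.2 at the lower dose, and 73.8 and 58.5 at the higher dose (0.63 ± 0.19 SE, adjusted p = 0.0984).

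The probes of a pair of ubiquitous tubulins lay near the ceiling of the intensity scale, where a rise would be compressed. The alpha-tubulin Tuba1c read 45255 to 59431 units and the beta-tubulin Tubb4b 53378 to 62227, and the highest deposited value among them, 65483, is next to the highest normalized value on the arrays, 65487.3. Their changes were -0.03 ± 0.16 and 0.09 ± 0.16 (SE, adjusted p = 0.915 and 0.762). Tubb6 read 19103 to 25200 units, and its higher-dose arrays overlapped the controls (0.05 ± 0.17 SE, adjusted p = 0.879). Tubb5, the common beta-tubulin of dividing cells, read 3489 and 2678 in control, 2750 and 2798 at the lower dose, and 3741 and 3420 at the higher dose, which overlapped control (0.23 ± 0.19 SE, adjusted p = 0.483).

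Tubb4a, a brain beta-tubulin, ranged from 620.1 to 914.5 (-0.05 ± 0.23 SE, adjusted p = 0.914). Tubb1, the platelet form, read only 7.5 to 11.8 units (-0.40 ± 0.19 SE, adjusted p = 0.24), and the brighter Tuba4a probe read 74.8 to 102.7 (0.33 ± 0.15 SE, adjusted p = 0.23). No probe used here carries the symbol Tuba1b or Tubb3. Over the 13 tubulins, 8 had a positive and 5 a negative higher-dose change, with a median of 0.09 and a range of -0.46 to 1.22. By probe, 2 of 14 rose (14.3%) and 0 fell, beside 5.55% and 5.06% of all probes. Both higher-dose arrays lay above both controls for 5 of the 14 and below them for 2, beside 28.8% and 31.3% of all probes, so the count above is near the background.

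With 2 arrays a group, the calls rest on all 6 arrays. At the higher dose against control, the calls were lost without either control array or either higher-dose array. Each of those fits leaves a compared group with a single array. Without either lower-dose array, Tubb2a and Kif6 kept their calls. All these fits have 2 in place of 3 residual degrees of freedom, and why calls were lost was not tested. Over all probes the same fits gave 5 to 28 changes without a control or higher-dose array and 1584 without a lower-dose array, in place of 2803. A group left with 1 array adds nothing to the estimate of the spread. The fit on only the 2 groups compared therefore repeats those without a lower-dose array and is not a separate check. In it Tubb2a and Kif6 passed, and the adjusted p of Kif23, Kif2c, Kif18a, Kif21b and Tuba1a lay between 0.0509 and 0.0642. In 6 main genes the higher-dose arrays did not overlap the controls, so leaving out 1 array could not turn the sign of a change. Only the size could vary, and it could not when a lower-dose array was left out. Over the 6 fits with 1 array left out, Kif23 ran from -1.15 to -0.86, Kif2c from -1.08 to -0.77 and Kif18a from -0.98 to -0.76. Kif21b ran from -0.86 to -0.71, Tuba1a from 1.07 to 1.36 and Tubb2a from 0.90 to 1.00.

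Probes of the same gene did not always move alike. Of the 11 genes with a pair of probes, 6 had the same sign of higher-dose change on both and 5 had opposite signs, and the probes of 6 genes differed by more than 0.5. The widest gap was in Kif14, whose dim second probe read 24.5 and 17.3 in control and 12.7 and 5.67 at the higher dose (-1.28 ± 0.43 SE, adjusted p = 0.123). A change passed on 1 probe only in Kif3b and Kif7, on the dimmer one each time, and on both probes in 0 genes. Brightness was ranked over all 6 arrays, higher-dose arrays included, so a fall itself lowers the rank of a probe. The Kif7 probes had near-equal control means, 158.2 units for the brighter and 158.1 for the dimmer. At the lower dose the dimmer one read higher (mean 186.3 units beside 177). In Kif5b and Kif4 the dimmer probe also had the larger negative change, without passing the test against control.

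**Figure D4:**
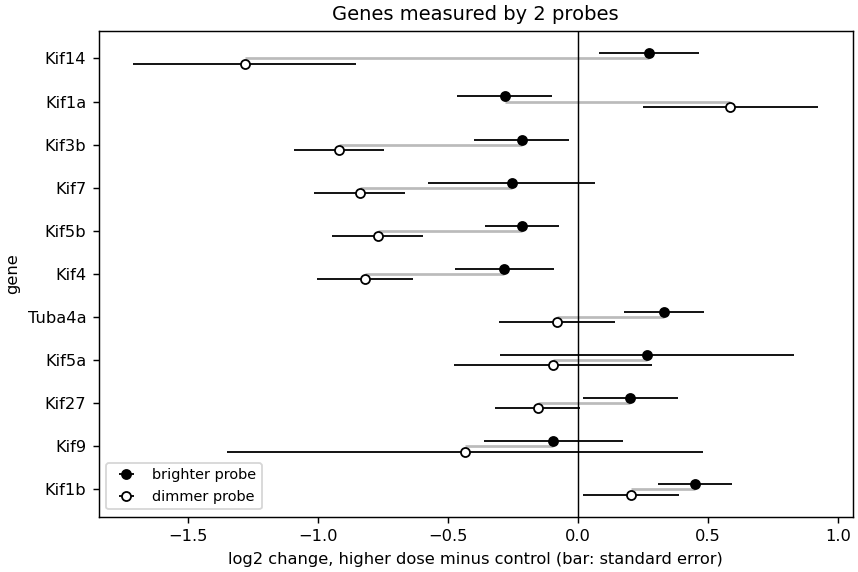
Log2 change at the higher dose against control (bar, standard error) on the brighter probe (filled) and the dimmer probe (open) of the 11 genes with 2 probes, ordered by the gap between them. The pairs lie close for Kif1b and Kif9 and far apart for Kif14 and Kif1a, whose probes have opposite signs.

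At the lower dose against control, 0 of the 61 probes passed, and the lowest adjusted p was 0.764. One probe, that of Kif26a, had an unadjusted p under 0.05, beside 6.36% of all probes. Kif26a, an atypical kinesin without motor activity, read 26.2 and 24.7 in control, 47.5 and 46.3 at the lower dose, and 30.5 and 33.7 at the higher dose, so both treated groups lay above the controls and the lower-dose arrays were the highest. Of the 12 mitotic kinesins, 11 had a positive lower-dose change, with a median of 0.13, beside 0.002 over all named genes. The other kinesins had a median of 0.04 (16 positive, 9 negative) and the tubulins -0.03 (5 positive, 8 negative). Both lower-dose arrays lay above both controls for 15 of the 61 probes and below them for 5. Of all 26423 probes, 18.5% lay above and 4379 below. Among the 15 were the probes of Kif18a, Kif2c, Kif22 and Kif21b, named here because they fell at the higher dose or between the doses, with lower-dose changes of 0.37 ± 0.17, 0.33 ± 0.19, 0.39 ± 0.16 and 0.28 ± 0.15 (SE), none of which passed (adjusted p = 0.766, 0.771, 0.764 and 0.771).

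The higher dose was also set against the lower dose, a comparison that shares the higher-dose arrays with the one above. Here 3 of 61 probes rose and 9 fell, beside 13.7% of all probes changed, 6.78% rising and 6.95% falling. On the values as deposited, with no normalization, the split over all probes was 1127 rising and 2965 falling, in place of 1792 and 1837. Of 14 mitotic kinesin probes 5 fell (35.7%) and 0 rose, those of Kif18a (-1.24 ± 0.17), Kif2c (-1.26 ± 0.19), Kif23 (-1.09 ± 0.18) and Kif22 (-0.80 ± 0.16) and the dimmer one of Kif4 (-0.86 ± 0.18), with adjusted p of 0.0202, 0.0226, 0.0261, 0.0381 and 0.0434. The higher-dose arrays lay below both lower-dose arrays for 11 of the 14 probes and above for 0, beside 30.7% and 28.5% of all probes. The median of the 12 genes was -0.83, beside -0.004 over all named genes.

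Kif21b fell between the doses by 1.06 ± 0.15 (SE, adjusted p = 0.022), as did the dimmer probes of Kif5b (-1.02 ± 0.17), Kif7 (-1.08 ± 0.18) and Kif3b (-0.89 ± 0.17), with adjusted p of 0.0275, 0.0259 and 0.0355. These 4 of 33 probes compare with 0 that rose, and the median of the other kinesins was -0.20. Among tubulins 3 of 14 probes rose (21.4%): Tuba1a (1.49 ± 0.22 SE, 2.81-fold, adjusted p = 0.0228), Tubb2a (0.99 ± 0.15 SE, 1.98-fold, adjusted p = 0.0229) and Tuba8 (0.98 ± 0.19 SE, 1.98-fold, adjusted p = 0.0343). On the values as deposited Tuba8 came to 0.68 (adjusted p = 0.142), and with arrays scaled to equal medians Kif22 came to -0.66 (adjusted p = 0.0704). The tubulin median was 0.21, with 9 of 13 genes positive. Leaving out any 1 of the 6 arrays brought the number of changed probes in this comparison from 12 to 0, while over all 26423 probes it brought the number from 3629 to between 6 and 25. Fitted on only these 2 groups, 0 of the 61 probes passed, and 7 of all probes did. That fit repeats those without a control array.

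**Figure D5:**
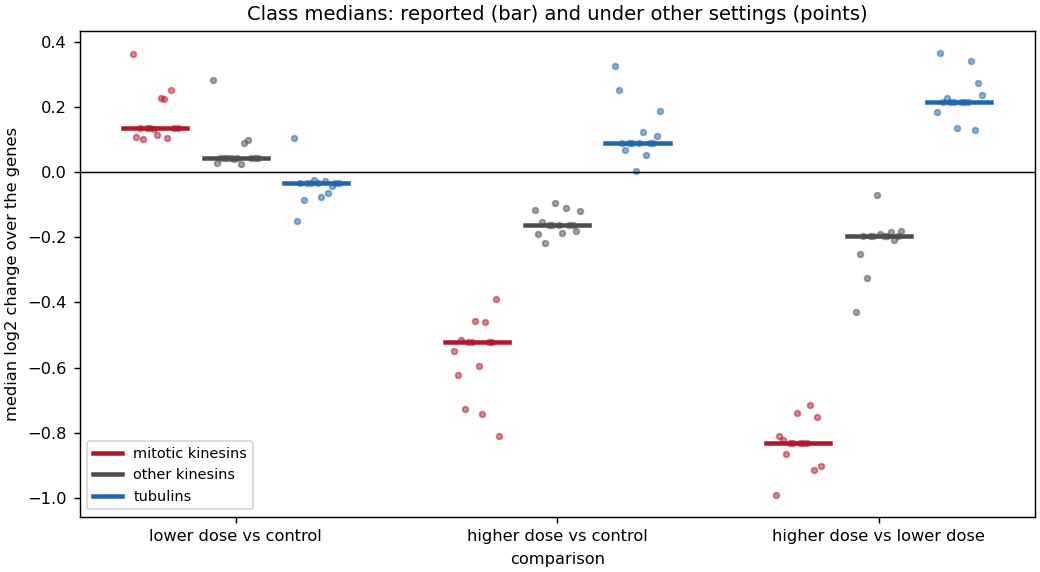
Median log2 change of mitotic kinesins, other kinesins and tubulins in each comparison (line), with the medians under 14 alternative settings (points). At the higher dose against control the mitotic kinesins run from -0.81 to -0.39, the other kinesins from -0.22 to -0.10 and the tubulins from 0.004 to 0.32.

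Genes that work with kinesins and tubulins were counted from lists of their own, at the higher dose against control, where 6.37% of all named genes rose and 5.39% fell with a median of -0.02. Mitotic regulators other than kinesins had a median of -0.48 over 24 of 26 genes measured, with 4 that fell and 1 that rose. Racgap1, the partner of Kif23 in centralspindlin, fell from 8223 and 7596 in control to 3902 and 3698 (-1.06 ± 0.16 SE, adjusted p = 0.0267). Prc1, which cross-links the midzone and recruits Kif4, fell by 0.79 ± 0.17 (SE, adjusted p = 0.0485). The checkpoint kinase Ttk fell by 1.25 ± 0.22 (SE, adjusted p = 0.0334) and Cdk1, the kinase of mitotic entry, fell by 0.65 ± 0.14 (SE, adjusted p = 0.0499). The Cdk1 probe was dim, below the median probe, at 102.8 and 106.5 in control and 66.8 on both higher-dose arrays. Birc5, a subunit of the chromosomal passenger complex, went the other way, rising from 4155 and 4418 in control to 7319 and 8049 (0.84 ± 0.15 SE, adjusted p = 0.0353).

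The gamma-tubulin ring complex and its anchors, all 12 measured, had a median of -0.46 with 2 that fell and 1 that rose (of all named genes, 5.39% fell and 6.37% rose). Its small subunit Mzt1 fell from 3840 and 4944 to 2148 and 2262 (-0.98 ± 0.20 SE, adjusted p = 0.0422) and Tubgcp4 from 1443 and 1077 to 694.2 and 620.7 (-0.93 ± 0.20 SE, adjusted p = 0.0497). Mzt2, the companion of Mzt1, rose from 671.5 and 729.8 to 1491 and 1512 (1.10 ± 0.19 SE, adjusted p = 0.0316). Among 26 of 27 genes of tubulin folding and modification, 4 rose and 2 fell, with a median of 0.14, against the same shares. Those that rose were the folding factors Tbcb (1.05 ± 0.17) and Arl2 (1.19 ± 0.21), the detyrosination cofactor Svbp (1.21 ± 0.19) and the deglutamylase Agtpbp1 (1.06 ± 0.20), with adjusted p of 0.0291, 0.034, 0.0265 and 0.0383. The tyrosine ligase Ttl (-0.84 ± 0.16 SE, adjusted p = 0.0379) and the deacetylase Hdac6 (-0.72 ± 0.15 SE, adjusted p = 0.043) fell.

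Dynactin and dynein adaptors were measured for 25 of 27 genes, with 2 that rose, 0 that fell and a median of -0.10, beside 6.37% rising and 5.39% falling among all named genes. The dynactin subunits Dctn3 (1.20 ± 0.22 SE, adjusted p = 0.0364) and Dctn6 (1.18 ± 0.19 SE, adjusted p = 0.0276) were those that rose. Kinesin relatives and partners outside the symbol rule, such as Cenpe and the kinesin light chains, had 0 changes over 10 of 11 genes and a median of -0.42, with 6 of their 11 probes at an unadjusted p under 0.05, beside 29.1% of all probes. Microtubule-binding proteins, 35 of 38 measured, had 1 gene that fell, the severing enzyme Fignl1 (-1.03 ± 0.18 SE, adjusted p = 0.0324). The 1 that rose, Map7d3, did so from values at or below the floor of 1 unit on all control arrays, and the list's median was -0.03. At the lower dose 0 genes of these lists changed in limma, with 0 to 3 probes a list at an unadjusted p under 0.05.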

How the data were processed

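RNA of 6 BV2 cultures was labelled with Cy5 and hybridised to single-colour Phalanx mouse OneArrays, per the labels' protocols. Each deposited value is a spot's intensity, a linear whole number, and some are below 0, hence background-subtracted. The submitters' processing notes name RMA, which gives log values with equal distributions. The deposited intensity medians differ between arrays (125 to 170), so no normalization between arrays was assumed. The scanner is not given in the sources used here.

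Arrays were quantile-normalized, values under 1 set to 1, and log2 taken. All 6 arrays were fitted in limma 3.58.1 (R 4.3.3) with a mean for each group, which leaves 3 residual degrees of freedom, and two-sided p-values were adjusted by Benjamini-Hochberg over 26423 probes, with a threshold of 0.05. The fit was tested on simulated data.

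The platform table gives 1 symbol for 20377 probes and leaves 6046 unnamed here. Symbols were updated through a RefSeq table (GRCm38.p6): 18213 exact, 2126 by synonym, 38 kept, which renamed 2 members (Tubb4a, Tubb4b). The brightest probe stood for a gene. Gene spans come from the same table. No genome build is given for the array. Promoter motifs were searched in RefSeq promoter windows of GRCm38.p6.

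The members, lists and class borders were chosen with earlier results of these data known. Named were up to 6 called genes per class and direction and a fixed set of kinesins, dyneins and tubulins. Kif1a, Kif2b, Kif3c, Kif7, Kif16b, Kif18b and Kif26a were named after their values were seen. Lists are described by counts and medians, with no set test. Alternatives were other scalings, floors, filters, thresholds, weights and priors, a replicate block, removal of the span trend, averaging a gene's probes, only the compared groups, and leaving out each array.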

Additional observations from a re-analysis of the deposited data

How the results depend on the processing

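Of the 61 probes, 9 changed at the higher dose against control (3 mitotic kinesins, 4 other kinesins, 2 tubulins), 12 between the doses and 0 at the lower dose. With log2(value + 16) the counts were 15 (6, 7 and 2) and 19; with probes above the median probe only, 18 (7, 8 and 3) against control; with a trended prior, 17 (6, 8 and 3) against control; at an adjusted p under 0.1, 17 (6, 7 and 4) and 21; and with a log2 change of at least 1 also required, 3 (1 in each class) and 7. With only the 2 groups compared they were 2 (0, 1 and 1) and 0. These fits repeat those that leave out an array of the group not compared. Array weights gave 5 mitotic kinesins, values as deposited 1 other kinesin, and equal medians 1 tubulin. Leaving out each array gave 0 to 2 probes against control (0 mitotic kinesins, 0 to 1 other kinesins, 0 to 1 tubulins) and 0 between the doses. The lower-dose count was 0 in every setting run.

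With the replicate number as a block, 0 probes changed against control (0 in each class) and 2 between the doses, and over all probes 11 against control and 1395 between the doses. Over 13211 probes, the replicate differences correlated at 0.03 for control and lower dose and 0.31 for control and higher dose. For lower and higher dose the value was -0.23. With a single replicate difference per group, these values cannot settle whether the numbers pair the arrays. Values as deposited shift the median of all probes by 0.22 at the lower dose against control and by -0.25 between the doses. Over all probes at the higher dose against control, the calls numbered 2803, with 4762 under log2(value + 16) and 5524 of 13211 among brighter probes. They numbered 5000 with a trended prior, 5262 at an adjusted p under 0.1 and 1899 with a log2 change of at least 1. With only the groups compared there were 1584, with array weights 3882, on the values as deposited 2138 and with equal medians 3144. Between the doses the calls numbered 3629, with 5662 under log2(value + 16) and 6425 at an adjusted p under 0.1. Requiring a log2 change of at least 1 gave 2216 there, and only the groups compared gave 7.

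Of 54 gene changes, 42 kept their sign in every setting run, and the 26 values that turned passed the threshold neither before nor after. Several settings leave the size of a change as it is and could not turn a sign. Among them are the replicate block, the trended prior, only the groups compared and leaving out an array of the group not compared. Kif14 turned with the mean of its probes (-0.51). With values as deposited, Kif5c (0.055), Tuba1c (0.25) and Tubg2 (0.00019) turned at the higher dose and Tubb2a (0.10) at the lower. With equal medians, Tuba1c (0.18) turned at the higher dose and Kif23 (-0.019) at the lower. With the span trend removed, Kif5c (0.11), Kif9 (0.037) and Tubb4b (-0.050) turned. Leaving out 1 array gave Kif20a -0.98 to 0.60, Kif5a -0.15 to 0.68, Kif5c -0.066 to 0.029, Kif9 -0.40 to 0.21, Tuba1c -0.091 to 0.024, Tubb4a -0.21 to 0.11, Tubb4b -0.012 to 0.19, Tubb6 -0.011 to 0.11 and Tubg2 -0.21 to 0.17 at the higher dose, and Kif23 -0.023 to 0.19 and Tubb2a -0.078 to 0.011 at the lower. The cause of these shifts was not tested. The 2 arrays per group limit the precision, and dim probes have values close to background.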

Other observations

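Genes of cilia, the organelle that several kinesins serve, were counted in the same way. Of 17 intraflagellar transport genes, which move cargo along the cilium with kinesin-2, 4 rose at the higher dose against control and 1 fell, with a list median of -0.36, where 6.37% of all named genes rose and 5.39% fell. Ift43 rose from 712 and 787.8 in control to 1863 and 1914 (1.33 ± 0.17 SE, limma adjusted p = 0.0204), and Ift22 from 986.7 and 1353 to 2478 and 3227 (1.29 ± 0.23 SE, adjusted p = 0.0338). Ift20 and Ift27 rose by 1.05 ± 0.23 and 1.03 ± 0.16 (SE, adjusted p = 0.0493 and 0.0258). Ift81 fell from 1390 and 1298 to 605 and 611.8 (-1.14 ± 0.14 SE, adjusted p = 0.0204). Genes of 1 transport machine thus had changes of both signs.

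Motile cilium genes, among them the axonemal dyneins, were measured for 29 of 34 genes, of which only 6 lay above the median probe. In this list 1 gene rose (Cfap126, from 350.8 and 312.8 to 755.5 and 704.6, adjusted p = 0.0217), 0 fell and the median was 0.01. Foxj1, the transcription factor that switches on motile cilium genes, was named after its values were seen. It read 92 and 72 in control, 1453.2 and 1422.3 at the lower dose, and 3806.5 and 3016.3 at the higher dose. The lower-dose change was 4.14 ± 0.21 (SE, adjusted p = 0.0444) and the higher-dose change 5.38 ± 0.21 (SE, adjusted p = 0.00532). The ciliary kinesins Kif9, Kif17 and Kif27 did not pass the test beside it, and Kif6 passed at 6 to 18.8 units.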
